A study of Rattus norvegicus with 4 samples.

Results

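Isolated JUN peaks are JUN-bound intervals that lie alone on their stretch of chromosome. A peak was counted as isolated when the next listed peak was more than 100 kb away, edge to edge, on both sides. Of 16907 peaks on the 20 rat autosomes, 1541 met this rule, which is 9.11% (the share the rule itself sets, given as a description). The other 15366 autosomal peaks had a neighbour within 100 kb on at least 1 side or were the first or last peak of a chromosome; these 40 end peaks have 1 neighbour only and were left out of the isolated set by the rule. The full list held 17017 peaks, with 107 on X and 3 on unplaced contigs.

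The peaks come from chromatin immunoprecipitation and sequencing (ChIP-seq) of JUN in injured sciatic nerve of male Sprague Dawley rats, labelled P28 by stage and described as adult in the surgery protocol. All 4 libraries were made from the part of the nerve beyond a complete cut, taken 8 days after the cut: 2 libraries of ChIP DNA, obtained with 4 µg of a JUN antibody from MNase-digested chromatin, and 2 of the matching input DNA without antibody. No uninjured nerve is among the samples analysed here, so no change from the intact state can be read from them. Only 1 peak list stands for the 4 libraries, with no value per library, so the depth is unknown and no error between animals can be given.

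JUN is a subunit of AP-1, a dimeric transcription factor of JUN, FOS and ATF family proteins that binds a short palindromic DNA element. In Schwann cells, the glia that wrap peripheral axons, JUN is induced by nerve injury and drives the switch from a myelinating cell to a repair cell. AP-1 factors mostly occupy enhancers, which can lie far from the start of the gene they act on and can stand alone or in dense clusters. The cut nerve also holds macrophages, fibroblasts and endothelial cells, in which AP-1 is active too, and a peak list from whole tissue does not assign a peak to a cell type.

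Every interval was 300 bp wide, with no height, score or gene name, so an isolated peak is known here by its position and by the distances around it. Positions are on rn5 and count from 1. The gene, exon or intron at each position and the AP-1 element inside it were not analysed here, as no rn5 sequence or annotation was used. Since the gaps chose the isolated peaks, all values below are descriptions and carry no test.

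Peaks close to the threshold lay on chromosomes 20, 19, 8 and 3. Just inside it were a pair on chromosome 19, from 49659879 to 49660178 and from 49760378 to 49760677, which are each other's nearest neighbour at 100.199 kb. The third was on chromosome 20 from 46409633 to 46409932, at 100.276 kb from its nearest neighbour. Just outside it were a pair on chromosome 8, from 130696568 to 130696867 and from 130796862 to 130797161, at 99.994 kb from each other, and a peak on chromosome 3 from 2862059 to 2862358 at 99.937 kb. On their other sides, the peaks just outside had 560, 249 and 5811 kb free of peaks, all above the threshold.

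Most isolated peaks had their nearest neighbour within 500 kb. The nearest gap had a median of 195 kb (quartiles 134 and 343 kb), and 792 isolated peaks (51.4%) had it between 100 and 200 kb. A further 525 (34.1%) had it between 200 and 500 kb and 158 (10.3%) between 500 and 1000 kb. The nearest gap exceeded 1 Mb for 66 isolated peaks (4.28%), on 18 chromosomes, and 2 Mb for 11 of them, on 8 chromosomes. The other autosomal peaks with 2 neighbours had a median nearest gap of 1.91 kb, and 25% of them had one under 0.535 kb.

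The gaps on the sides of an isolated peak were unequal, though less so than those of the other peaks. The farther gap had a median of 550 kb (quartiles 290 and 1151 kb) and was 2.16 times the nearest gap in the median peak. For the other peaks with 2 neighbours, the farther gap had a median of 38.9 kb and was 8.14 times the nearest in the median peak. The rule, which sets a minimum for both gaps, limits this ratio. In 457 isolated peaks (29.7%) the larger gap was within 1.5 times the smaller, and in 119 (7.72%) it was more than 10 times the smaller. The left gap was the larger in 764 peaks and the right gap in 777.

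**Figure D1:**
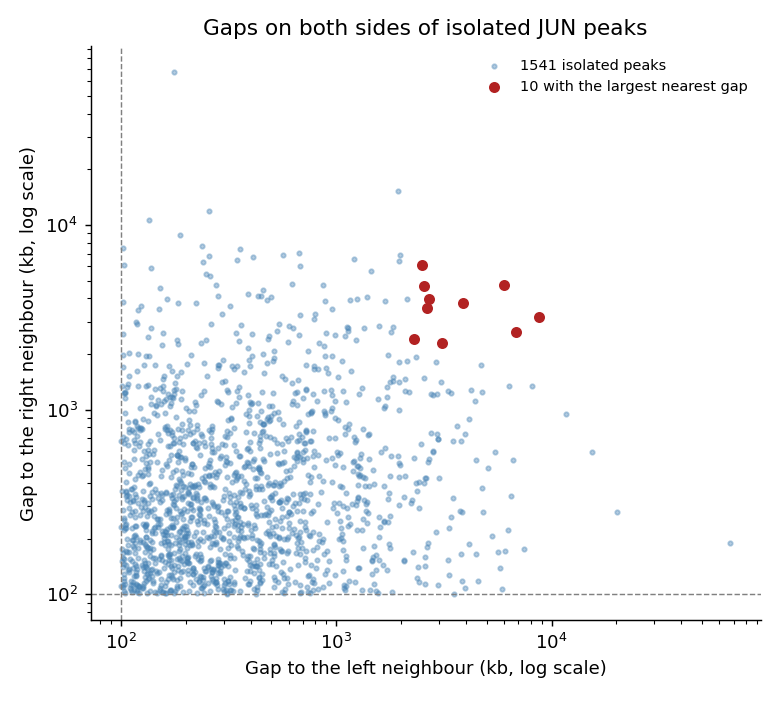
Gap to the left neighbour (x axis, kb, log scale) against gap to the right neighbour (y axis, kb, log scale) for each of the 1541 isolated peaks, with the 10 of largest nearest gap in red and the 100 kb threshold as dashed lines. The median nearest gap is 195 kb, and the red points have more than 2 Mb on both sides.

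The most isolated JUN peak of the autosomes lay on chromosome 6 from 96311179 to 96311478, with 6003 kb without a peak before it and 4743 kb after it. Another peak of chromosome 6, from 27256576 to 27256875, came second and stood near the middle of its empty stretch, with 3.88 Mb before and 3.77 Mb after. Chromosome 2 held the third, from 156837711 to 156838010, with 8.78 Mb before and 3.19 Mb after. The next pair had similar distances: the peak of chromosome 8 from 17494846 to 17495145 had 2.69 and 3.96 Mb, and the peak of chromosome 9 from 22278080 to 22278379 had 2.65 and 3.56 Mb.

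Chromosome 1 contributed 3 of the 10 most isolated peaks. They lay from 115265101 to 115265400, with 6.85 Mb before and 2.64 Mb after, from 66375190 to 66375489, with 2.56 and 4.69 Mb, and from 30602384 to 30602683, with 2.29 and 2.42 Mb. The stretch of 6.85 Mb is shared by 2 isolated peaks, since the peak on its other side, from 108415728 to 108416027, also had 1.97 Mb free of peaks before it. The last of the 10 were on chromosome 16 from 39492317 to 39492616, with 2.51 and 6.07 Mb, and on chromosome 5 from 38235261 to 38235560, with 3.08 and 2.29 Mb.

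Each of the other 13 autosomes also had a peak that stood far from all others, with a nearest gap between 0.783 and 2.12 Mb. On chromosome 14 it lay from 63202893 to 63203192, with a nearest gap of 2.12 Mb. Chromosome 7 had its most isolated peak from 83579681 to 83579980 (1.96 Mb), chromosome 15 from 73526631 to 73526930 (1.94 Mb, a gap shared with the peak from 75462659 to 75462958), chromosome 17 from 42185934 to 42186233 (1.82 Mb) and chromosome 10 from 23882286 to 23882585 (1.82 Mb). On chromosome 18 it lay from 8123533 to 8123832 (1.69 Mb), on chromosome 4 from 222664813 to 222665112 (1503 kb) and on chromosome 20 from 19273009 to 19273308 (1.48 Mb). Chromosome 13 had it from 46849979 to 46850278 (1.27 Mb), chromosome 3 from 38799602 to 38799901 (1.26 Mb) and chromosome 12 from 7617961 to 7618260 (1.26 Mb). The smallest values were those of chromosome 19, from 56956364 to 56956663 (0.990 Mb), and chromosome 11, from 47476943 to 47477242 (0.783 Mb). Chromosomes 12 and 10, the densest in peaks, thus still held peaks with more than 1 Mb free on both sides, while chromosomes 11 and 19 held none.

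The share of isolated peaks was lowest on the 3 chromosomes that were densest by full length, and over the 20 autosomes it fell as this density rose. With full lengths, which include peak-free stretches, the rank correlation of share and density was -0.702 and the linear correlation -0.792. Single chromosomes departed from the order. The highest shares were 14.3% on chromosome 11 (56 of 392 peaks; exact 95% interval 11.0 to 18.1%), 12.9% on chromosome 15 (68 of 528; 10.1 to 16.0%) and 12.1% on chromosome 2 (146 of 1207; 10.3 to 14.1%). The lowest were 5.02% on chromosome 12 (32 of 638; 3.46 to 7.01%), 5.29% on chromosome 20 (29 of 548; 3.57 to 7.51%) and 6.27% on chromosome 10 (81 of 1291; 5.01 to 7.74%). By full length, chromosome 4, with the fewest peaks per Mb, had 9.81%. Chromosome 13, at 5.23 peaks per Mb, had 7.59%, below the 9.51% of chromosome 17 at 7.52 peaks per Mb. These 2 low densities depend on empty stretches counted in the length. Without stretches over 5 Mb, chromosome 13 had 9.10 peaks per Mb, above chromosome 17, and chromosome 4 had 6.67. Chromosome 14 still departed, with a share of 7.92% at 6.88 peaks per Mb, below chromosome 17 in both. The Clopper-Pearson intervals of the shares cover counting error only. A crowded chromosome leaves less room for gaps over 100 kb, so the share and the density are linked by the rule.

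As a share of all isolated peaks, chromosome 1 held 11.7% and chromosome 2 held 9.47%, against 12.2% and 6.90% of the other peaks. Chromosome 10 held 5.26% of the isolated and 7.87% of the other peaks, and chromosome 12 held 2.08% and 3.94%. The ratio of the first share to the second ran from 0.527 on chromosome 12 to 1.66 on chromosome 11. Chromosome 17 had nearly the same weight in both sets, with 4.28% and 4.09%.

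Per megabase, isolated peaks were more evenly spread over the chromosomes than peaks as a whole. The rule bears on this too, since a crowded chromosome leaves less room for isolated peaks. The density of isolated peaks ran from 0.379 per Mb on chromosome 4 to 0.723 on chromosome 10, a 1.90-fold range around a median of 0.600, while the density of all peaks had a 3.08-fold range. Chromosome 12, with 11.9 peaks per Mb, and chromosome 11, with 4.22, had 0.597 and 0.603 isolated peaks per Mb. With peak-free stretches over 5 Mb taken out of the chromosome lengths, the range was 0.502 (chromosome 20) to 0.846 (chromosome 11) isolated peaks per Mb, or 1.69-fold, against 2.07-fold for all peaks. Chromosome 4, which loses 104 Mb by this, then had 0.654 isolated peaks per Mb and was no longer the lowest.

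**Figure D2:**
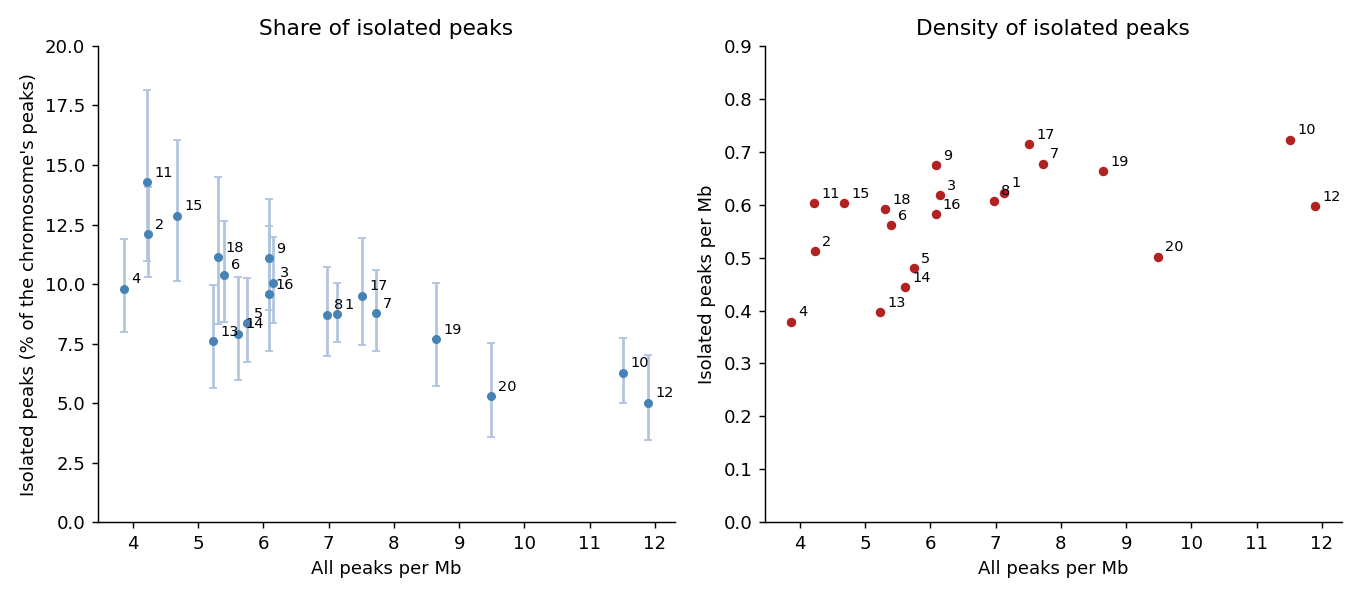
Isolated peaks on each of the 20 autosomes (points, labelled by chromosome) against all peaks per Mb (x axis). The left panel gives isolated peaks as a percentage of the chromosome's peaks with exact 95% intervals of counting error, from 5.02% on chromosome 12 to 14.3% on chromosome 11; the right panel gives isolated peaks per Mb, which lie between 0.379 and 0.723.

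Beyond the 100 kb that the rule asks for, isolated peaks still had fewer peaks around them than the other autosomal peaks had. To see this, peaks were counted in the ring from 100 kb to 1 Mb on both sides of each peak, a distance the rule did not use. Isolated peaks had a median of 11 peaks in this ring (quartiles 5 and 22), and the other autosomal peaks had 19 (quartiles 11 and 32). The median of the isolated peaks was the lower on 20 of 20 chromosomes, by 1 peak on chromosome 10 (26 against 27) to 20 peaks on chromosome 19 (10 against 30). Crowding within and beyond 100 kb can go together, so this difference is not independent of the rule.

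The ring count was lowest for isolated peaks and highest for peaks in large groups, where a group joins neighbours up to the distance at which enhancers are usually stitched into one cluster. Peaks that stood outside groups with more than 100 kb on 1 side only, 2383 in number, had a ring median of 17, and the 1661 remaining lone peaks had 20. Peaks in groups of 2 to 4 had 19, those in groups of 5 to 9 had 22, and the 1475 peaks in groups of 10 or more had 23. The quartiles of these classes overlapped widely, and 459 isolated peaks (29.8%) had 20 or more peaks in their ring.

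The distance profile shows how far the difference from the other peaks reached. From 100 to 200 kb, the mean density was 7.46 peaks per Mb around isolated peaks and 18.3 around the others, a ratio of 0.408. The ratio was 0.818 from 700 to 800 kb, with 8.82 and 10.8 peaks per Mb, but lower again further out, with 0.707 from 1 to 1.25 Mb and 0.693 from 1.5 to 1.75 Mb. From 2 to 2.5 Mb it was 0.826, with 7.55 and 9.15 peaks per Mb. From 4.5 to 5 Mb the densities were 6.37 and 6.89 peaks per Mb, a ratio of 0.924. Around isolated peaks, the density changed little with distance up to 1 Mb, between 7.46 and 8.82 peaks per Mb, whereas around the other peaks it was highest close by. The values around isolated peaks lie within the range of whole autosomes, from 3.87 peaks per Mb on chromosome 4 to 11.9 on chromosome 12. At each distance from 100 kb to 5 Mb they were above the density of all autosomes together. That density is 16907 peaks over 2729 Mb, with peak-free stretches included. On average, their surroundings beyond 100 kb were thus sparser than those of the other peaks, but neither empty nor sparser than the autosomes as a whole.

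**Figure D3:**
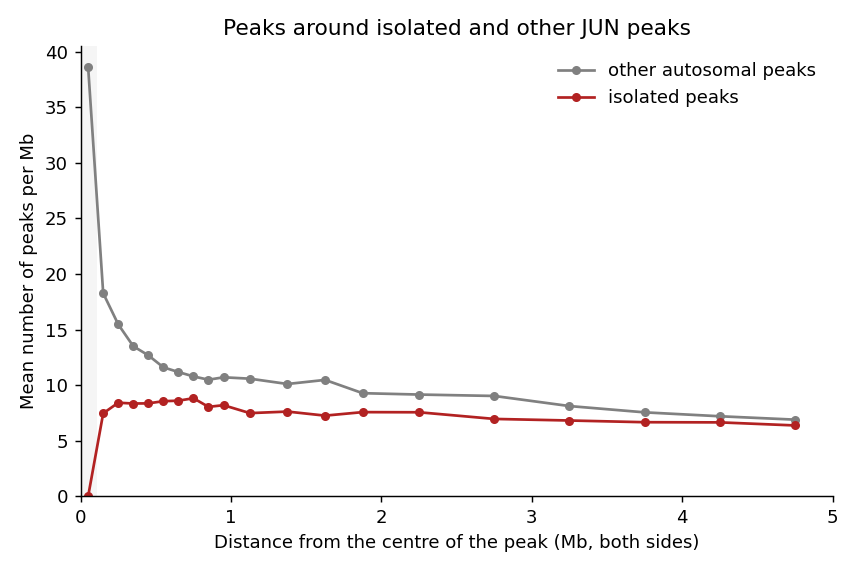
Mean number of peaks per Mb (y axis) by distance from the centre of the peak (x axis, Mb, both sides together) for the 1541 isolated peaks (red) and the 15366 other autosomal peaks (grey); the shaded first 100 kb is set by the rule. The grey line starts at 38.6 peaks per Mb and approaches the red line, which reaches 8.82 between 0.7 and 0.8 Mb and 6.37 at the far end.

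A peak in a dense area counts many times among the other peaks, so the surroundings were also compared by island. Splitting the autosomes at each gap over 100 kb gave 3948 islands of peaks, each at least 100 kb from the next. Islands of a single peak numbered 1558, or 39.5% of all islands, and held 9.22% of the peaks; 1541 of them are the isolated peaks and 17 are end peaks. Islands of 2 peaks numbered 701, and islands of 10 to 19 peaks, 320 in number, held the most peaks, 25.3%. In the 1 Mb outward of the island's edges, isolated peaks had a median of 11 peaks (quartiles 5 and 22) and the 2367 larger islands not at a chromosome end had 15 (quartiles 7 and 27).

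By island size, the outward median was 13 for islands of 2 peaks, 16 for those of 3 to 9 and 19 for those of 10 or more. The mean was lower for isolated peaks than for larger islands on 19 of 20 chromosomes. Chromosome 11 was the exception, with 13.4 against 12.8, and on chromosome 10 the means were also close, 26.2 against 27.0. The largest difference was on chromosome 19, with means of 16.1 and 24.8. Counted by island, where all islands meet the same gap rule, the difference in surroundings was thus smaller than when counted by peak.

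Isolated peaks occurred in sparse and in dense windows of the chromosomes. Of 2738 windows of 1 Mb, 1102 (40.2%) held at least 1 isolated peak. The median isolated peak shared its window with 4 other peaks, as the median window total was 5 over isolated peaks and 17 over the other peaks. In 366 windows, 20.1% of the 1825 windows with a peak, all peaks were isolated; these windows held 526 isolated peaks. Of 282 windows with a single peak, 247 had an isolated one. Window totals and isolation are linked by the rule, since a peak alone in its window can have a close neighbour only across the border.

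The number of isolated peaks per window varied less than their share of the peaks there. Windows with 3 or 4 peaks had the highest mean, 1.02 isolated peaks, and those with 30 or more peaks had the lowest, 0.450. The share of peaks that were isolated was 87.6% in windows of 1 peak, 29.7% in windows of 3 or 4, 5.36% in windows of 10 to 19 and 1.19% in windows of 30 or more. The 80 densest windows, with 30 or more peaks, still held 36 isolated peaks. A crowded window leaves less room for gaps over 100 kb, so the share and the window total are linked by the rule.

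**Figure D4:**
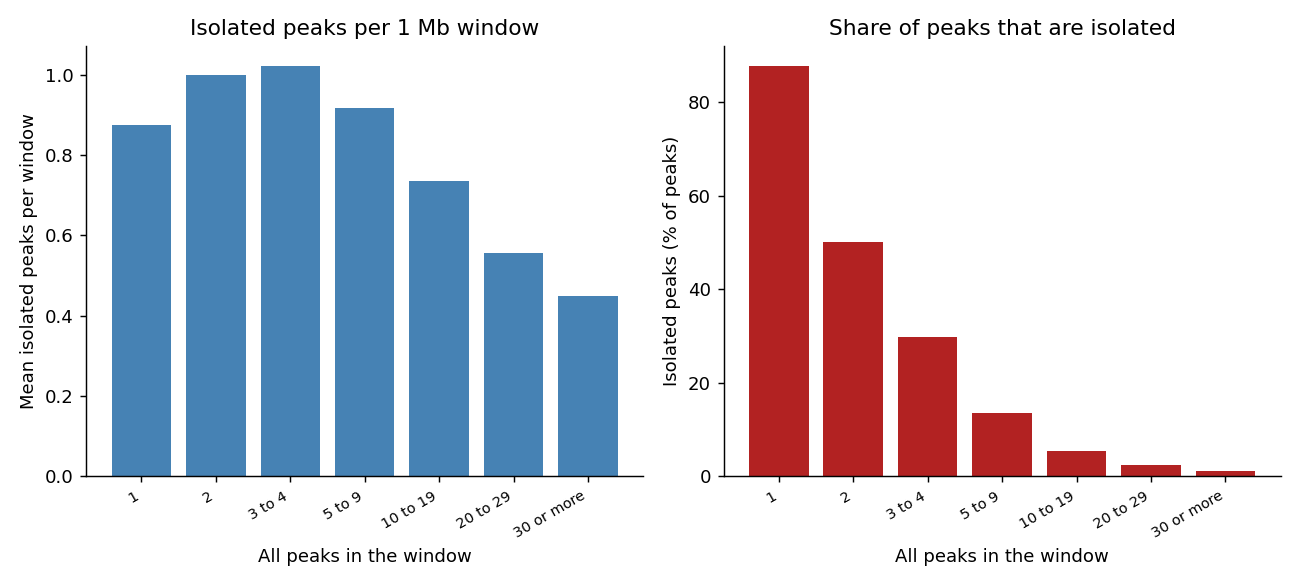
Windows of 1 Mb grouped by the number of all peaks they hold (x axis), a number that the rule links to isolation. The left panel gives the mean number of isolated peaks per window, between 0.450 and 1.02; the right panel gives the percentage of the peaks in these windows that are isolated, from 87.6% in windows of 1 peak to 1.19% in windows of 30 or more.

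At most 5 isolated peaks lay in 1 window, which occurred in 3 windows. At 135 to 136 Mb of chromosome 2 and at 34 to 35 Mb of chromosome 7, all 5 peaks of the window were isolated. At 10 to 11 Mb of chromosome 10, the window held 8 peaks, of which 5 were isolated.

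Some isolated peaks stood in a clearing within dense territory. The isolated peak with the most peaks in its ring was on chromosome 7 from 120910785 to 120911084, with 97 peaks between 100 kb and 1 Mb from it, and its gaps were 137 and 178 kb. On chromosome 10 from 106136039 to 106136338, an isolated peak with gaps of 144 and 230 kb had 86 peaks in its ring. The third, on chromosome 1 from 56655627 to 56655926, had gaps of 178 and 189 kb and 73 peaks in its ring. At the other end, 66 isolated peaks (4.28%) had no peak in their ring, which is the same as a nearest gap over 1 Mb, against 220 of the other peaks (1.43%). Counted by island, the 1 Mb outward of both edges was empty for the same 4.28% of isolated peaks, 4.20% of islands of 2 peaks and 2.62% of all larger islands.

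The nearest neighbour was another isolated peak for 636 isolated peaks (41.3%), while 458 (29.7%) had another lone peak as their nearest neighbour, 395 (25.6%) a peak of a group of 2 to 4, and 52 (3.37%) a peak of a group of 5 or more. Isolated peaks make up 9.11% of autosomal peaks and other lone peaks 23.9%. Groups of 2 to 4 hold 40.6% of them and groups of 5 or more hold 26.4%. By island, however, single peaks make up 39.5% of the islands that an isolated peak can have as a neighbour. Counted by side, 1340 of the 3082 islands next to an isolated peak (43.5%) were single peaks, against 36.8% of the 4734 islands next to a larger island. Islands of 10 or more peaks made up 9.86% of the islands next to an isolated peak and 12.2% of those next to a larger island.

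Consecutive isolated peaks, with no other peak between them, formed runs. Of the 1541, 1015 (65.9%) belonged to 349 runs of 2 or more consecutive isolated peaks, and 526 (34.1%) had no isolated peak next to them. With end peaks included, a single peak lay next to 1019 of the isolated peaks (66.1%). The same held for 1413 of the 2367 larger islands (59.7%), a somewhat lower share, with no test of the difference. Runs of 4 or more numbered 74 and held 370 isolated peaks (24.0%). The median distance from an isolated peak to the nearest other isolated peak was 476 kb, with quartiles of 231 and 934 kb.

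The longest run lay on chromosome 2 from 134225745 to 139921526, where 11 isolated peaks followed each other over 5.70 Mb at gaps of 116 to 2341 kb, with a median of 345 kb. It includes the window of 5 isolated peaks on this chromosome. The first 8 peaks of the run were spaced at 116 to 497 kb, a gap of 2341 kb followed, and the last peak, from 139921227 to 139921526, had 33 peaks in its ring, all on its right, since its left neighbour was 1073 kb away. The second run was on chromosome 19 from 49235130 to 51534292 and held 10 isolated peaks over 2.30 Mb, at gaps of 100 to 681 kb with a median of 204 kb. It contains the pair at the threshold, so with a threshold above 100.199 kb it would lose both and be broken up.

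Runs of 8 isolated peaks were found on chromosomes 15 and 3. The run of chromosome 15, from 14500374 to 22042900, covered 7.54 Mb at gaps of 263 to 2817 kb, with a median of 816 kb. Its peaks had between 0 and 5 peaks in their rings, which makes it the sparsest of the 3 longest runs (the longer of the runs of 8 was taken as the third). The ring counts were 6 to 16 on the chromosome 19 run and 1 to 33 on that of chromosome 2.

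**Figure D5:**
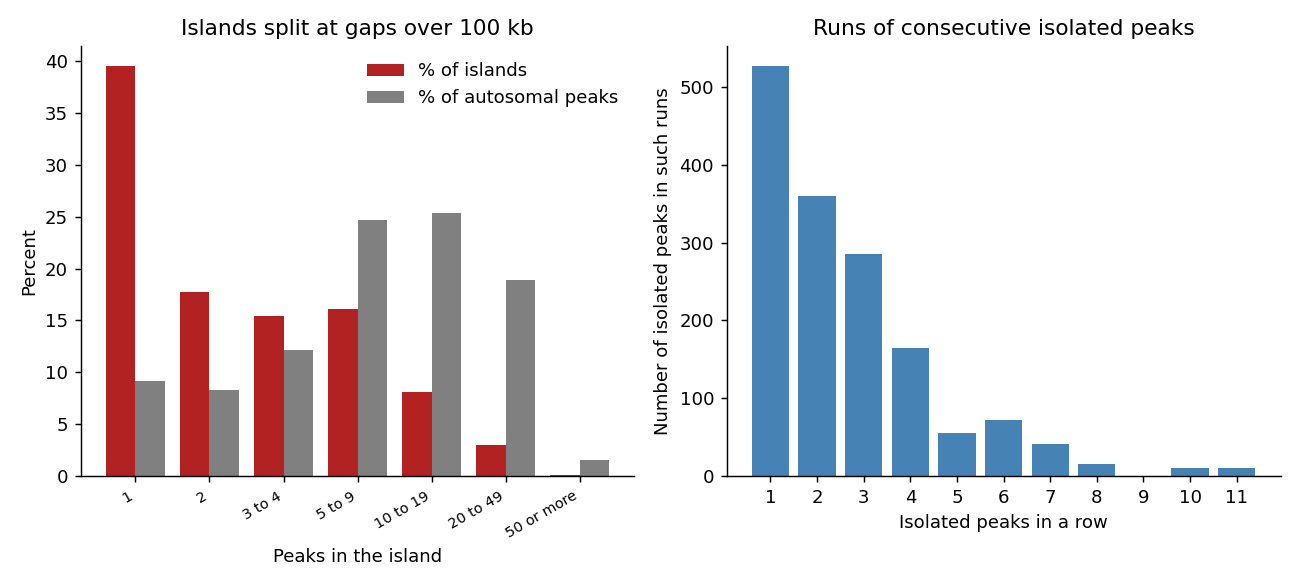
Left panel, islands of peaks split at gaps over 100 kb, by the number of peaks in the island (x axis), as a percentage of the 3948 islands (red) and of the autosomal peaks (grey); single peaks make up 39.5% of islands and 9.22% of peaks. Right panel, number of isolated peaks (y axis) that lie in runs of a given number of consecutive isolated peaks (x axis), from 526 with no isolated neighbour to 11 in the longest run.

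Long stretches without a peak were often bordered by isolated peaks. Over all 3928 gaps of more than 100 kb, isolated peaks made up 39.2% of the 7856 edges. Of 544 stretches over 1 Mb between neighbouring peaks, 47.5% of the 1088 edges were isolated peaks, and 47.8% of the 92 edges of the 46 stretches over 5 Mb were. Both edges were isolated in 128 of the 544 stretches and neither in 155. A stretch over 1 Mb lay beside 451 isolated peaks (29.3%) and 571 of the other peaks (3.72%), a comparison that the rule favours. The longest stretch, 67.4 Mb of chromosome 4, had isolated peaks on both edges, starting at 67326849 and 134726692. The longest stretch of chromosome 15, 15.4 Mb, was also bordered by isolated peaks, starting at 75462659 and 90826024. The longest of chromosome 2, 20.2 Mb, had an isolated peak on its right edge only, starting at 41027503. Whether JUN binding could have been called inside these stretches was not tested.

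The share of isolated peaks was somewhat higher in the middle of chromosomes than at their ends, with no test of the difference. With each chromosome divided into 5 equal parts from its first base to its last peak, the share was 8.27% in the first part, 10.6% in the middle part and 8.35% in the last. The middle part also held the fewest peaks, 2677, against 3133 in the first part and 4527 in the last. Share and density are linked by the rule, so the higher share in the middle cannot be told apart from its lower density. The last part held the most peaks of both kinds, 24.5% of the isolated and 27.0% of the others.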

How the data were processed

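JUN ChIP-seq was performed on injured rat sciatic nerve, with 2 ChIP and 2 input libraries. The authors deposited 1 list of intervals (chromosome, start, end in base pairs; genome build rn5, per the submitters' processing notes), and those notes name CASAVA 1.8.2, Bowtie2, MACS2, bedtools and deepTools. How these tools were set, the cut-off for a peak and any pooling of libraries were not given in the sources used here. Depth is unknown. Starts were taken as 0-based, since end minus start was always 300. Intervals on chromosomes 1 to 20 were sorted, gaps taken edge to edge, and peaks with more than 100 kb on both sides kept. Rings and windows use peak centres. Lengths run to the last peak. Regions were named by rule: the 10 with the largest nearest gap, the most isolated per autosome, 3 on either side of the threshold, the 3 longest runs, the 3 fullest rings, and the 3 chromosomes with the highest and lowest shares; windows, longest stretches and other single regions were picked after their values were seen. The members and rules were chosen with earlier results of these data known. The rule was tested on simulated data. Computations used Python 3.11.15 with pandas 2.3.3 and NumPy 2.4.6, intervals SciPy 1.17.1, and plots matplotlib 3.10.9.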

Additional observations from a re-analysis of the deposited data

Results flagged for a closer look

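The X chromosome lies outside the autosomal rule. By the same gap rule, 23 of its 107 peaks were isolated, or 21.5% (exact 95% interval 14.1 to 30.5%, counting error only), with a median nearest gap of 848 kb. This was a higher share than on any of the 20 autosomes, while the density of isolated peaks on X, 0.153 per Mb, was lower than on any of them. Neither difference was tested, and no allowance was made for the copy number of X in these male rats. X was also sparser in all peaks, with 107 over 151 Mb, against 958 over 248 Mb on chromosome 4, the sparsest autosome by full length. Both lengths include peak-free stretches. Without stretches over 5 Mb, chromosome 4 had 6.67 peaks per Mb, and the lowest autosome was chromosome 18, at 5.76. Share and density are linked by the rule.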

How the results depend on the processing

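Of 28 values recomputed under other settings, 11 stayed within 1.5 times (counts and the spread over chromosomes) or within the 95% interval (percentages and medians) of the reported value, and 17 moved. These intervals treat peaks as independent and cover counting error only. A changed gap or ring also alters what is counted, so moves under those settings follow from the setting, and the tally is a description only. The number of isolated peaks followed the gap: 2673 at 50 kb (15.8% of autosomal peaks, median nearest gap 116 kb) and 749 at 200 kb (4.43%, 350 kb). It was 1545 with gaps between centres, 1558 with end peaks kept, 1670 and 1755 after joining peaks closer than 500 and 1000 bp, and 1564 with X. Joining raised the percentage to 11.1% and 13.0%, as fewer intervals remained, and the share with an isolated nearest neighbour to 45.8% (1000 bp). The ring median, 11 for isolated and 19 for other peaks, was 4 and 10 from 100 to 500 kb, 25 and 38 from 100 kb to 2 Mb, and 7 and 16 at a 200 kb gap with a ring of 200 kb to 1 Mb. Counting groups and lone peaks in the ring, a setting added after seeing the data, gave 7 and 11. The isolated peaks had the lower median in each of these settings and in the one without peaks near long empty stretches or chromosome ends, also added later, with 12 and 20. A stricter peak threshold needs a score, which the intervals lack. No paired analysis was possible because 1 list stands for all libraries, which also kept any replicate from being left out.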
